A study of Malus domestica with 6 samples.

Results

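The genes described are 7 identifiers of the apple peel transcriptome, of 46558 listed in all, chosen because they stand for the last steps of anthocyanin and catechin synthesis and the MYB factor that governs red colour. They were chosen under these names: MD09G1278600 as MYB1/MYB10, MD15G1024100 as dihydroflavonol 4-reductase (DFR), MD06G1071600 and MD03G1001100 as anthocyanidin synthase (ANS), MD01G1234400 as UDP-glucose:flavonoid glucosyltransferase (UFGT), and MD16G1048500 and MD13G1046900 as leucoanthocyanidin reductase (LAR). The deposited tables carry identifiers without names, and 0 of the 7 matched an entry of the RefSeq gene table of apple assembly GDT2T_hap1. The names therefore rest on that choice and could not be checked against an annotation, no sequence or position is printed, and the other genes of the pathway were not analysed here.

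RNA was taken from the pericarp (fruit wall, with epidermal cells given as the cell type) of wild-type Fuji apples held under vacuum for 5 min in an aqueous solution of 5 µmol per litre epigallocatechin-3-gallate (EGCG), a catechin of green tea, and then stored for 10 days. Control apples, titled WT, were treated the same way without EGCG, in water according to the design text and in ddH2O2 according to their treatment label. Each treatment held 30 apples, of which 3 were sequenced, so each group has 3 libraries, each taken as 1 apple. The total counts ran from 17564402 in control replicate 3 to 19549798 in EGCG replicate 3, and the scaling factors between libraries from 0.977 to 1.03. The label of the tissue was not checked against marker genes, because no identifier could be paired with a marker's name.

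Anthocyanins give apple skin its red colour, and catechins and the proanthocyanidins built from them are colourless. Both come from leucoanthocyanidin, the product of DFR. LAR reduces it to catechin, while ANS oxidises it to cyanidin, which UFGT glycosylates to a stable anthocyanin. Cyanidin can also be reduced to epicatechin by another enzyme, so ANS is not committed to anthocyanin alone. MYB1, with MYB10 as another allele of the same locus, is an R2R3-MYB factor that activates DFR, ANS and UFGT in apple skin, mainly in light.

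The transcript of LAR MD16G1048500 stood above those of both ANS copies and UFGT in every library. The sides as a whole are not ranked, because the enzyme that reduces cyanidin to epicatechin was not analysed. LAR MD16G1048500 was among the abundant transcripts, DFR was moderately expressed, and the MYB, both ANS copies and UFGT were low, each with fewer than 10 counts in at least 1 apple. Levels are given first as counts and as FPKM (counts scaled by gene length and by library total), which can be compared between genes.

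The MYB, the regulator of the red-colour genes, was read 5, 12 and 23 times in EGCG replicates 1, 2 and 3 and 53, 20 and 4 times in control replicates 1, 2 and 3. These counts correspond to 0.225, 0.531 and 0.991 FPKM after EGCG and to 2.35, 0.926 and 0.192 FPKM in the controls. The highest and the lowest apple were thus both controls, and all 3 EGCG apples lay between them. With so few reads the counting error is wide: the 95% Poisson interval of the 4 counts in control replicate 3 runs from 1.09 to 10.2, that of the 5 counts in EGCG replicate 1 from 1.62 to 11.7, and that of the 12 counts in EGCG replicate 2 from 6.20 to 21.0. The order of these 3 apples by MYB level is therefore not resolved at this depth, whereas the 53 counts of control replicate 1, with an interval from 39.7 to 69.3, stand apart from the other 5 libraries. Such intervals cover counting error only and leave out the spread between apples. They take each read as a separate molecule, which reads without molecular identifiers cannot show.

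DFR, which makes the leucoanthocyanidin that both sides use, was read between 218 and 630 times. It stood at 18.1, 15.3 and 20.7 FPKM after EGCG and at 24.3, 17.5 and 9.11 FPKM in the controls. Control replicate 1 was again the highest and control replicate 3 the lowest, with the EGCG apples between them.

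ANS, the first enzyme past the branch point on the anthocyanin side, was represented by a major and a minor copy. The major copy MD06G1071600 had 32, 7 and 44 counts after EGCG (1.31, 0.283 and 1.73 FPKM) and 216, 53 and 12 counts in the controls (8.74, 2.24 and 0.526 FPKM). Control replicate 1 exceeded every other apple, and EGCG replicate 2 was the lowest. The minor copy MD03G1001100 had 3, 4 and 12 counts after EGCG (0.0758, 0.0994 and 0.290 FPKM) and 36, 10 and 3 counts in the controls (0.896, 0.260 and 0.0808 FPKM). It lay below the major copy in 6 of 6 libraries. The major copy held 94.6%, 74.0% and 85.6% of the summed ANS FPKM in EGCG replicates 1, 2 and 3, and 90.7%, 89.6% and 86.7% in control replicates 1, 2 and 3. The value of 74.0% rests on 7 and 4 counts. Where copies are similar in sequence, reads may have been split between them in counting.

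UFGT, which adds the sugar to cyanidin, had 15, 5 and 25 counts after EGCG (0.421, 0.138 and 0.672 FPKM) and 63, 16 and 0 counts in the controls (1.74, 0.462 and 0 FPKM). For the count of 0 in control replicate 3 a limit of 3 counts was set, or 0.0897 FPKM. The 95% Poisson interval of that 0, as used above, reaches 3.69 counts. The control apples again held both ends of the range.

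LAR MD16G1048500, the catechin-forming enzyme, was read between 1631 and 3321 times. It stood at 93.0, 91.6 and 98.2 FPKM after EGCG and at 77.9, 94.3 and 53.7 FPKM in the controls. The 3 EGCG apples were close to each other, and control replicate 2 lay among them, so the groups overlapped. The other LAR, MD13G1046900, had 8, 1 and 4 counts after EGCG and 3, 1 and 0 in the controls, 17 reads in all. The same limit of 3 counts for its 0 in control replicate 3 is 0.106 FPKM. MD16G1048500 held between 99.7% and 100% of the summed LAR FPKM of a library, so the catechin side as measured here is this copy.

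**Figure D1:**
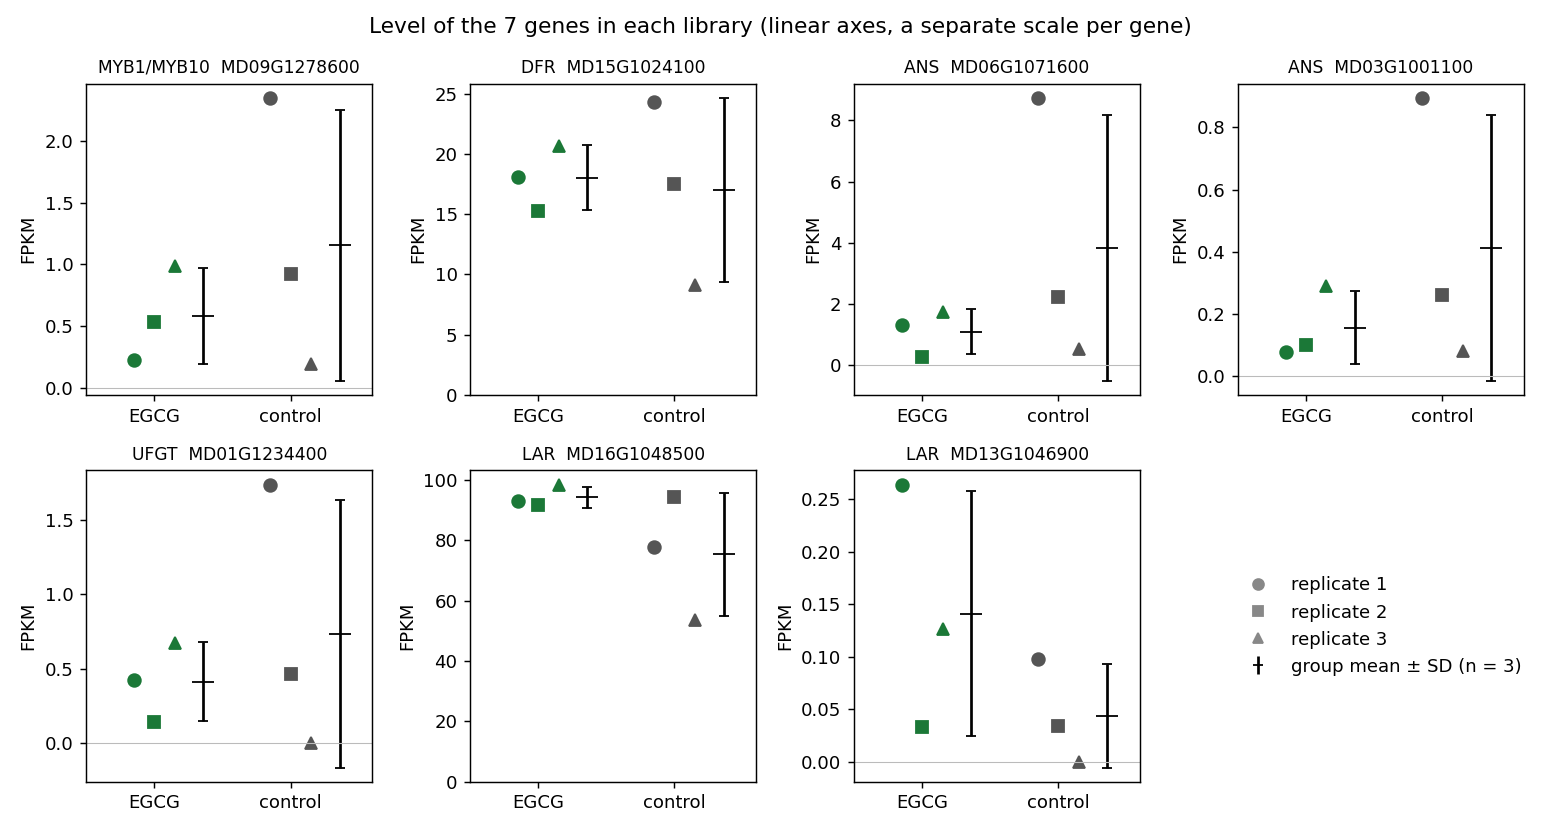
FPKM of each of the 7 genes in the 3 EGCG (green) and 3 control (grey) libraries, each panel on its own linear axis, with the group mean ± SD (n = 3) in black. In the panels of the MYB, DFR, both ANS copies and UFGT, control replicate 1 (grey circle) is the highest point, and in those of the MYB, DFR, UFGT and both LAR copies control replicate 3 (grey triangle) is the lowest.

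By mean FPKM over the 6 libraries, the order was LAR MD16G1048500 (84.8), DFR (17.5), ANS MD06G1071600 (2.47), the MYB (0.869), UFGT (0.572), ANS MD03G1001100 (0.284) and LAR MD13G1046900 (0.0924). LAR MD16G1048500 exceeded 96.8% of the genes with any count in mean FPKM, DFR 82.6%, and the MYB 33.5%. The upper steps of this order held in every apple: LAR MD16G1048500 lay above DFR, and DFR above ANS MD06G1071600, in 6 of 6 libraries. The lower steps were less firm, since ANS MD06G1071600 lay above the MYB, the MYB above UFGT, UFGT above ANS MD03G1001100 and ANS MD03G1001100 above LAR MD13G1046900 in 5 of 6 libraries each. The ranges of these neighbours over the 6 libraries overlapped.

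The genes also differed in how far they varied between apples. As counts scaled to a common library total (CPM), LAR MD16G1048500 spanned 1.79-fold and DFR 2.58-fold from the lowest to the highest apple. The MYB spanned 11.8-fold, ANS MD03G1001100 11.3-fold and ANS MD06G1071600 29.4-fold. UFGT in control replicate 1 was 18.9-fold above the limit of 3 counts set for control replicate 3, which is not a strict lower bound. The lowest values behind these spans are 3 to 7 counts in the MYB and both ANS copies, so the spans themselves are imprecise.

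The biological coefficient of variation is edgeR's estimate of the spread within groups beyond counting error. EdgeR's biological coefficient of variation within the groups was 94.2% for UFGT, 74.5% for ANS MD06G1071600, 65.2% for the MYB and 64.6% for ANS MD03G1001100. The median of the 24960 tested genes was 16.5%. A value as high as that of UFGT was found in 0.192% of the tested genes, as high as that of ANS MD06G1071600 in 0.729%, as high as that of the MYB in 1.19% and as high as that of ANS MD03G1001100 in 1.25%. DFR, at 26.4%, was in the upper 20.6%, and LAR MD16G1048500, at 17.5%, in the upper 45.9%. These shares are over all tested genes. Genes of like abundance were not compared separately, so how unusual the low members are among such genes was not tested. Control replicate 1 held the highest FPKM of 5 of the 7 genes and control replicate 3 the lowest of 5. How often these libraries hold the extremes among all genes was not counted. The RNA came from tissue labelled pericarp, so more cells that express a gene and more RNA per cell cannot be told apart.

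The covariation of the other genes with the MYB was measured on log2 CPM over the 6 apples. The 4 genes of the red-colour route, DFR, both ANS copies and UFGT, had r between 0.76 and 0.96 with the MYB, and LAR MD16G1048500 had an r of 0.30. By Pearson's r, 1 of the 6 relations, that of ANS MD03G1001100, had an exact p under 0.05. This count depends on the measure, since UFGT had such a p by rank, and UFGT and ANS MD06G1071600 had one on log2(FPKM + 1) (exact permutation p = 0.0181 and 0.025). No gene passed after adjustment over all genes, since the smallest adjusted p (exact permutation) of any of the 24959 genes was 1. With 6 libraries no p below 0.00139 (exact permutation) is possible.

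ANS MD03G1001100, the minor ANS copy, followed the MYB closely, with Pearson r = 0.96 (exact permutation p = 0.00278) and Spearman rho = 0.94 (exact permutation p = 0.0167, n = 6). Only 27 of the 24959 genes compared with the MYB, or 0.108%, had an r at least as high. Without control replicates 1 and 3, the apples farthest from the median of the MYB, r was 0.93 over the remaining 4, and with the group means removed it was 0.97. Without control replicate 1 alone r was 0.93 with an exact permutation p of 0.05 (n = 5). The minor copy had 3 or 4 counts in 3 of the 6 libraries.

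UFGT had r = 0.81 (exact permutation p = 0.05) and rho = 0.94 (exact permutation p = 0.0167, n = 6). Its log2 CPM in control replicate 3, at 0 counts, was set by the constant added before the log. ANS MD06G1071600 had r = 0.76 (exact permutation p = 0.0722) and rho = 0.77 (exact permutation p = 0.103, n = 6). DFR had r = 0.76 (exact permutation p = 0.0667) and rho = 0.83 (exact permutation p = 0.0583, n = 6). Without control replicates 1 and 3 these values dropped to r = 0.29 for UFGT, 0.29 for ANS MD06G1071600 and 0.21 for DFR, so these 3 relations rest on that pair of apples, without which the range of the MYB is narrower and 4 apples remain. Leaving out control replicate 1 alone gave r = 0.66 for UFGT, 0.46 for ANS MD06G1071600 and 0.65 for DFR. Leaving out control replicate 3 alone gave 0.71, 0.71 and 0.68. With the group means removed, r was 0.85 for UFGT, 0.74 for ANS MD06G1071600 and 0.88 for DFR.

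EGCG replicate 1 stood apart from the relation of UFGT and of DFR with the MYB: it had 5 counts of the MYB but 15 of UFGT and 462 of DFR, while EGCG replicate 2 had 12, 5 and 397. Without EGCG replicate 1, r was 0.99 for UFGT and 0.96 for DFR, and it was also higher for ANS MD06G1071600 (0.86) and LAR MD16G1048500 (0.52). Without EGCG replicate 2, r was 0.91 for ANS MD06G1071600. These apples were singled out after their values were seen, so the values are descriptions only. The counting intervals of the MYB in these 2 apples overlap, as given above.

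LAR MD16G1048500 had r = 0.30 with the MYB (exact permutation p = 0.589) and rho = 0.26 (exact permutation p = 0.658, n = 6). The value was unstable: without control replicate 3 r was -0.72 (exact permutation p = 0.308, n = 5), without control replicate 1 it was 0.64 (exact permutation p = 0.0667, n = 5), and without both it was 0.40. With the group means removed it was 0.62, nearer to the 0.74 to 0.97 of the red-route genes than the 0.30 of the values themselves. LAR MD13G1046900, with 17 reads in all, had r = 0.09 (exact permutation p = 0.879) and rho = 0.37 (exact permutation p = 0.497, n = 6), which at this depth says little.

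**Figure D2:**
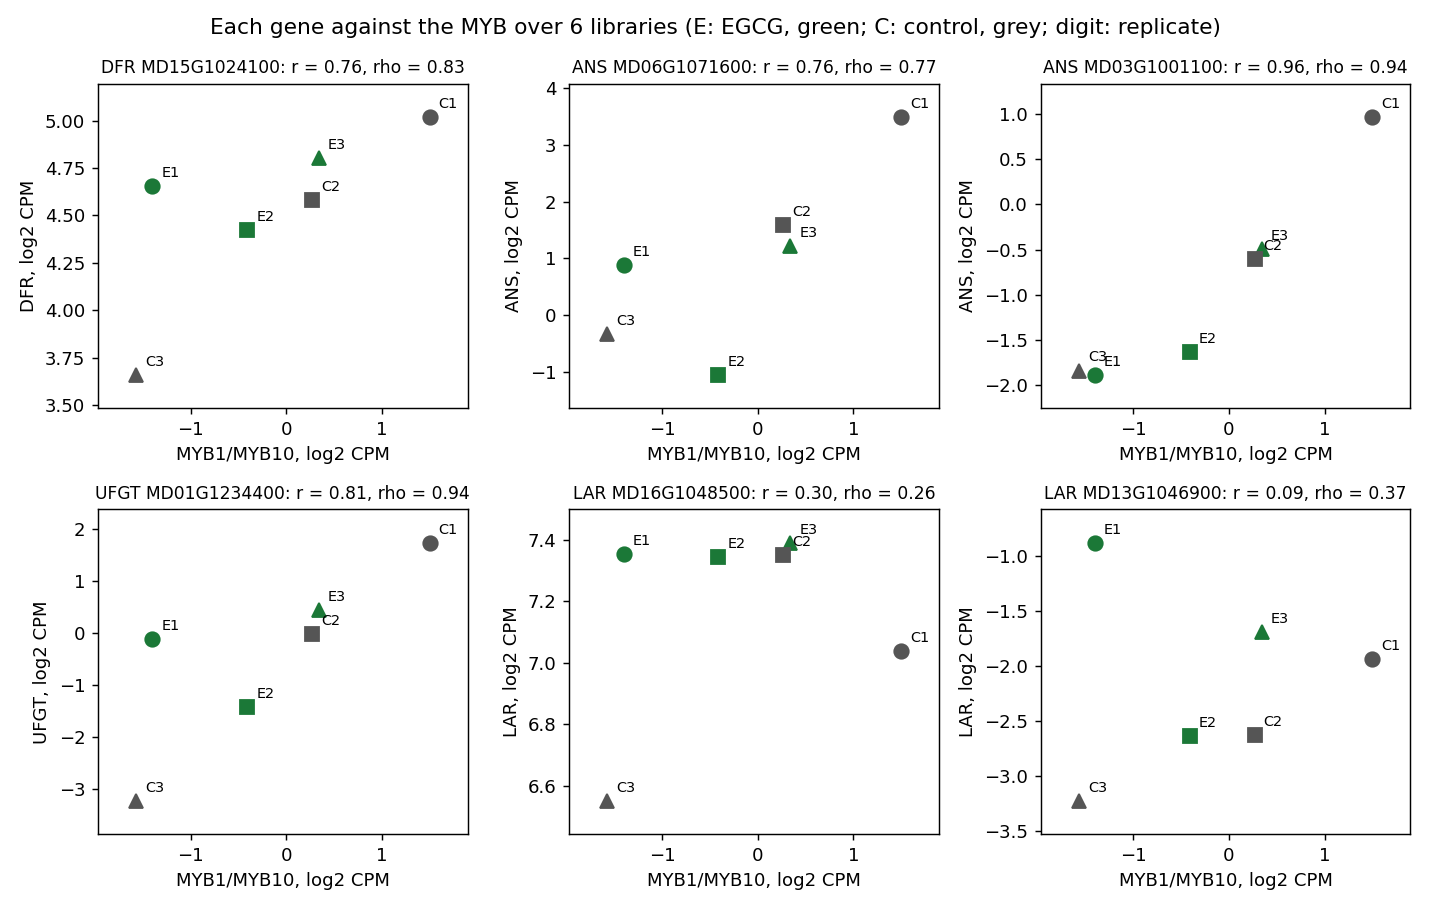
Log2 CPM of each of the other 6 genes (vertical axes) against that of the MYB (horizontal axes) in the 6 libraries, with E for EGCG (green), C for control (grey) and the replicate number. ANS MD03G1001100 lies near a line (r = 0.96), while LAR MD16G1048500 is nearly level over 4 libraries and lower in control replicates 1 and 3 (r = 0.30).

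The members' r can be read against all genes. Of the 24959 genes compared with the MYB, 1.92% had a positive r with an exact p under 0.05 and 2.24% a negative one, and the median r was 0.01. Among the members, 1 of the 5 tested had a positive r with such a p. An r at least as high as that of UFGT was reached by 2.08% of all genes, as that of ANS MD06G1071600 by 3.14%, as that of DFR by 3.19% and as that of LAR MD16G1048500 by 27.5%. All p-values here come from the 720 orders of the 6 libraries.

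**Figure D3:**
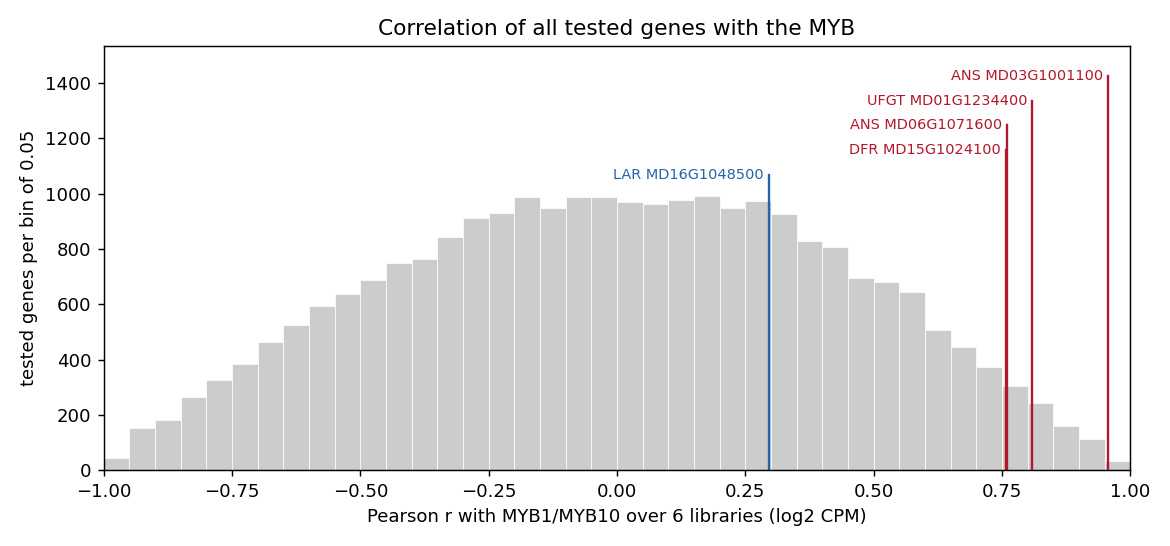
Number of tested genes (vertical axis) by their Pearson r with the MYB over the 6 libraries (horizontal axis), with lines at the 5 members that were tested. The lines of DFR, both ANS copies and UFGT lie between 0.76 and 0.96, in the upper 3.19% of genes or beyond, and that of LAR MD16G1048500 lies at 0.30.

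Among themselves, the MYB, DFR, both ANS copies and UFGT gave 10 pairs, with r from 0.70 to 0.97 and rho from 0.66 to 0.94. With the group means removed, r ran from 0.74 to 0.99. The closest was not with the MYB but between DFR and UFGT, the enzymes before and after ANS, with r = 0.97 (exact permutation p = 0.00278), rho = 0.94 (exact permutation p = 0.0167, n = 6) and r = 0.93 without control replicates 1 and 3. This pair was picked as the highest r of the 10, so its p-values are descriptions only. The same 5 genes had r from 0.09 to 0.71 with LAR MD16G1048500, and from 0.51 to 0.74 with the group means removed, so the 2 ranges were closer within the groups. With LAR MD13G1046900 they had r from 0.09 to 0.69, and from 0.30 to 0.85 with the group means removed. The highest with LAR MD16G1048500 was that of DFR, at r = 0.71 (exact permutation p = 0.135) and rho = 0.43 (exact permutation p = 0.419, n = 6). All pairs share the same 6 libraries, in which control replicates 1 and 3 hold most of the extremes.

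Of 22875 other genes averaging 1 CPM or more, those with the highest r to the MYB were MD01G1120800 (r = 0.994) and MD03G1163400 (r = 0.992), and those with the lowest were MD17G1253400 (r = -0.997) and MD14G1041500 (r = -0.985). MD01G1120800 had 202, 226 and 254 counts after EGCG and 284, 229 and 187 in the controls. It thus followed the order of the MYB over a far narrower span. MD17G1253400 had 333, 311 and 319 counts after EGCG and 289, 294 and 323 in the controls. These 4 were picked as the extremes of all genes over 6 libraries, so their r is a description.

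At the branch point, LAR transcripts outnumbered ANS transcripts in every apple, but by very different factors. Summed over copies, ANS stood at 1.39, 0.382 and 2.02 FPKM after EGCG and at 9.64, 2.50 and 0.606 FPKM in the controls. That was 1.49%, 0.417% and 2.05% of the summed LAR FPKM in EGCG replicates 1, 2 and 3 and 12.4%, 2.65% and 1.13% in control replicates 1, 2 and 3. LAR therefore exceeded ANS from 8.09-fold in control replicate 1 to 240-fold in EGCG replicate 2. The ANS sum varied 25.2-fold between apples and the LAR sum 1.83-fold, so nearly all of the variation of the ratio lay on the ANS side.

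The level of DFR relative to LAR varied less between apples than its level relative to ANS. By correlation DFR was not closer to LAR, with r = 0.71 for LAR MD16G1048500. Its r was 0.72 for ANS MD06G1071600 and 0.70 for ANS MD03G1001100. By rank DFR was closer to ANS, with rho = 0.43 for this LAR against 0.77 and 0.66 for the ANS copies in the same order. With the group means removed, r was 0.74 against 0.93 and 0.90. Without control replicates 1 and 3 the order was reversed, with r = 0.90 against 0.74 and 0.51. Summed LAR exceeded DFR between 3.21-fold and 5.99-fold, with the lowest factor in control replicate 1. DFR exceeded summed ANS between 2.52-fold in the same apple and 40.0-fold in EGCG replicate 2. The log2 ratio of ANS to LAR was -6.53 ± 1.22 (SD, n = 3) after EGCG and -4.91 ± 1.75 (SD, n = 3) in the controls. The difference of -1.62 is about as large as the spread within the groups, whose values overlapped, and it was -0.67 without control replicate 1.

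**Figure D4:**
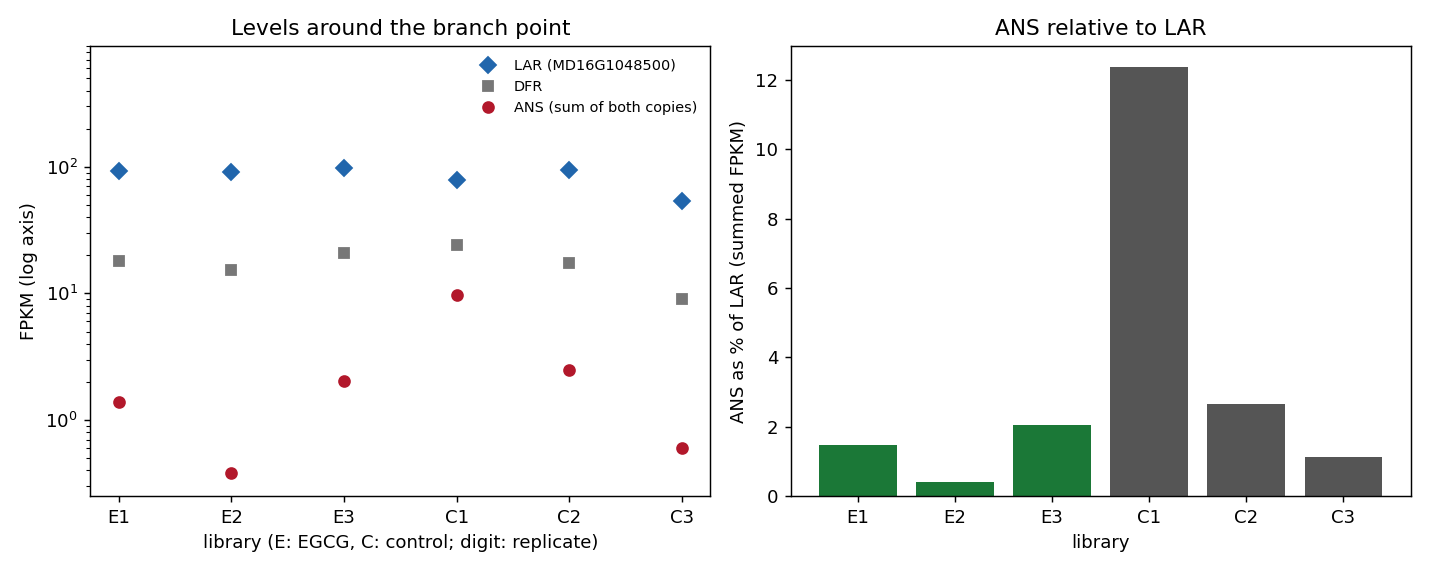
Left, FPKM on a log axis of LAR MD16G1048500, DFR and the sum of both ANS copies in each library; right, summed ANS as a percentage of summed LAR, with EGCG libraries in green and control libraries in grey. LAR keeps between 53.7 and 98.2 FPKM while ANS runs from 0.382 to 9.64 FPKM, and control replicate 1 reaches 12.4% where the other 5 libraries stay at or below 2.65%.

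The comparison of EGCG with control peel asks whether the treatment changed these transcripts after 10 days of storage. None of the 6 members that passed the filter on low counts also passed the test. Both ANS copies, the MYB and UFGT had lower fitted values after EGCG and LAR MD16G1048500 a higher one. EGCG and control values overlapped in all 7 genes, whereas they did not overlap in 14.5% of all tested genes. In edgeR's quasi-likelihood test 0 of 6 members passed an adjusted p of 0.05, against a background of 0% of the 24960 tested genes. At an unadjusted p under 0.05 there were also 0 of 6, where 8.71% of all tested genes reached it. That count moved with single libraries: both ANS copies were lower at such a p without control replicate 3 (edgeR unadjusted p = 0.0185 for MD06G1071600 and 0.0452 for MD03G1001100), and LAR MD16G1048500 was higher without control replicate 2 (edgeR unadjusted p = 0.00823). DESeq2 called 0 of the 6 members to which it gave an adjusted p. It called 0.763% of the 34450 genes to which it gave a p, a base that includes genes without an adjusted p. Limma-voom called 0 of 6 members and 0% of all genes.

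For the MYB, the mean was 0.582 ± 0.386 FPKM (SD, n = 3) after EGCG and 1.16 ± 1.10 FPKM (SD, n = 3) in the controls. The fitted log2 difference was -0.96 (standard error 0.80), with a 95% interval from -2.82 to 0.90 and an edgeR adjusted p of 0.763. The direction rested on control replicate 1: without it the value was 0.068.

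On the anthocyanin side, ANS MD06G1071600 averaged 1.11 ± 0.746 FPKM (SD, n = 3) after EGCG and 3.84 ± 4.33 FPKM (SD, n = 3) in the controls. Its log2 difference was -1.76 (standard error 0.92), with a 95% interval from -3.89 to 0.37 and an edgeR adjusted p of 0.626. The control mean was 1.38 FPKM without control replicate 1, and the log2 fold change then was -0.31. ANS MD03G1001100 gave -1.37 with a standard error of 0.86, a 95% interval from -3.35 to 0.61 and an edgeR adjusted p of 0.682, and its value was -0.12 without control replicate 1. UFGT gave -0.81 with a standard error of 1.07, a 95% interval from -3.28 to 1.66 and an edgeR adjusted p of 0.856, and its value was 0.82 without control replicate 1. These intervals are wide enough to hold several-fold differences in the level of either sign for UFGT, and a several-fold decrease for both ANS copies.

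DFR and LAR MD16G1048500 were measured more precisely. DFR averaged 18.0 ± 2.69 FPKM (SD, n = 3) after EGCG and 17.0 ± 7.62 FPKM (SD, n = 3) in the controls. Its log2 fold change of 0.11 had a standard error of 0.30, a 95% interval from -0.58 to 0.80 and an edgeR adjusted p of 0.937, and it was -0.18 without control replicate 3. LAR MD16G1048500 averaged 94.3 ± 3.50 FPKM (SD, n = 3) after EGCG and 75.3 ± 20.4 FPKM (SD, n = 3) in the controls. Its log2 difference was 0.35 (standard error 0.18), with a 95% interval from -0.07 to 0.77 and an edgeR adjusted p of 0.626. An exact two-sided permutation test of its log2 CPM gave p = 0.2, where 3 against 3 allows no p below 0.1. Without control replicate 3 its log2 fold change was 0.16. LAR MD13G1046900 did not pass the filter on low counts.

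**Figure D5:**
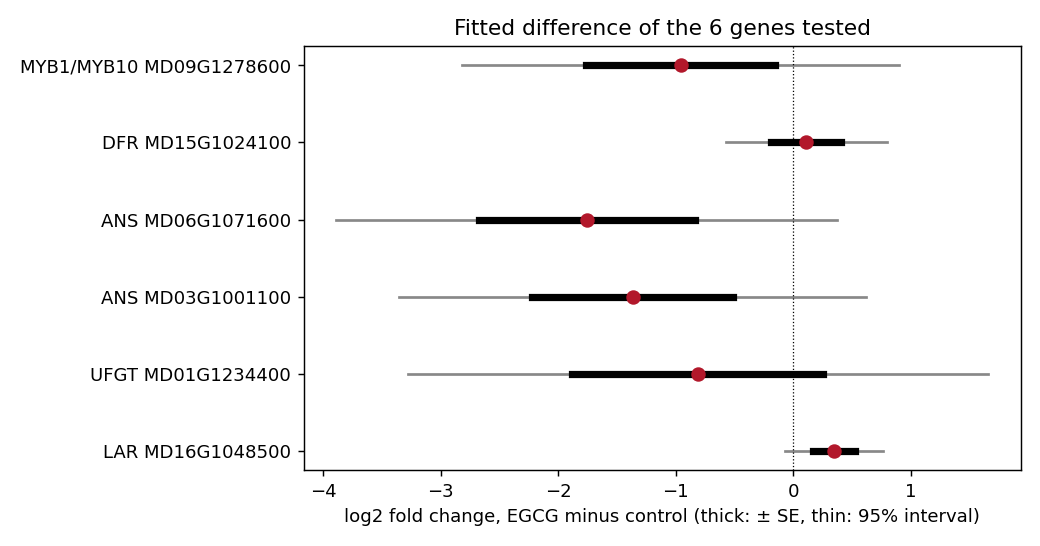
Fitted log2 fold change, EGCG minus control, of the 6 genes that passed the filter on low counts (horizontal axis, points), with ± the standard error (thick lines) and the 95% interval (thin lines). Every interval spans 0, from the narrow one of LAR MD16G1048500 (-0.07 to 0.77) to the wide one of UFGT (-3.28 to 1.66).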

How the data were processed

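The authors deposited a table of raw counts and a table of FPKM per gene identifier, each with 1 column for each of 6 libraries. Tools named in the submitters' processing notes, without roles, are fastp, HISAT2, HTSeq, DESeq2 and R 3.2.0. For genome build, annotation and strand setting, the sources used here give nothing. The deposited FPKM equal the counts over library total and a fixed gene length, from 1187 bases (MYB) to 2115 bases (ANS MD03G1001100) among the members. Groups and replicate numbers came from the titles. The members and all lists were chosen with earlier results of these data known.

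From the counts, edgeR 4.0.16 in R 4.3.3 (TMM, filterByExpr, glmQLFit, group as the only term) was run on all genes, with Benjamini-Hochberg adjustment over the 24960 tested. Standard errors were the fold change over the root of its F, and intervals used the fit's degrees of freedom. Correlations used TMM-scaled log2 CPM with a prior count of 2 and two-sided exact permutation over 720 orders (scipy 1.17.1). The fits and correlations were tested on simulated data. Besides the 7 members, the 2 identifiers most like and the 2 most unlike the MYB by r, among genes of at least 1 CPM, were named. Alternatives were DESeq2 1.42.0, limma 3.58.1 (voom, and trend on log2(FPKM + 1) or log2(FPKM + 0.1), which understates changes of low genes), RLE and upper-quartile scaling, other filters, a replicate block and leaving out libraries. The design text gives 3 apples per group, so p-values measure the spread between apples of 1 experiment.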

Additional observations from a re-analysis of the deposited data

How the results depend on the processing

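The number of members called stayed at 0 in all 16 alternatives. The number of all tested genes called, 0 in edgeR, was 263 with DESeq2, 2 without a low-count filter and 1 with the replicate block, and between 0 and 20 when 1 library was left out (20 without EGCG replicate 3, 16 without control replicate 1). With the replicate block, which the design text of separate apples does not call for, the log2 fold change was -0.70 for the MYB, -1.42 for ANS MD06G1071600 and 0.38 for LAR MD16G1048500. Same-numbered libraries deviated from their group means with correlations of -0.16, 0.13 and 0.16 across genes. Libraries of different numbers were not compared in this way, so these values do not settle whether the numbers pair the samples.

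Leaving out 1 library gave log2 fold changes from -1.55 to 0.068 for the MYB, -0.18 to 0.45 for DFR and -1.39 to 0.82 for UFGT, each with a change of sign, and from -2.27 to -0.31 and from -2.15 to -0.12 for ANS MD06G1071600 and MD03G1001100 and 0.16 to 0.55 for LAR MD16G1048500, without one. Limma-voom gave 0.56 for UFGT, against -0.81 in edgeR; the cause was not tested. The difference in the log2 ratio of ANS to LAR ran from -2.40 to -0.67 with 1 library left out. It was -2.61 from the mean log2 FPKM of the copies, without control replicate 3, where LAR MD13G1046900 was at 0.

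For correlations with the MYB, leaving out 1 library gave r from 0.93 to 0.98 for ANS MD03G1001100 (p = 0.05 by exact permutation without control replicate 1), from 0.46 to 0.91 for ANS MD06G1071600, from 0.65 to 0.96 for DFR, from 0.66 to 0.99 for UFGT and from -0.72 to 0.64 for LAR MD16G1048500. On log2(FPKM + 1), r was 0.89 for ANS MD06G1071600 and 0.91 for UFGT, both past an exact p of 0.05. With a prior count of 0.5, r was 0.73 for ANS MD06G1071600 and 0.78 for UFGT, neither past it. With the group means removed r was 0.62 for LAR MD16G1048500 and 0.30 for LAR MD13G1046900. The latter gave -0.054 on log2(FPKM + 1), -0.65 without the 2 libraries farthest from the median of the MYB, and -0.41 to 0.82 with 1 library left out. Depth limits the MYB, ANS MD03G1001100, UFGT and LAR MD13G1046900, which had single-digit counts in at least 2 libraries, and ANS MD06G1071600 in EGCG replicate 2.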
